A study of Bos taurus and Mus musculus with 16 samples.

Results

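Splicing factors and hnRNPs were taken as the genes whose symbols begin with SNRP (core snRNP proteins), SRSF (SR proteins), HNRNP (heterogeneous nuclear ribonucleoproteins, hnRNPs), SF3A or SF3B, U2AF or PRPF, followed by the number or letter of the family member. This rule matched 67 of 16655 genes in the mouse table and 68 of 14852 in the bovine table. A gene was tested where it averaged at least 10 normalized reads over all samples of its table, which left 66 members among 11386 tested mouse genes and all 68 members among 8884 tested bovine genes. The mouse member below that limit was Srsf12, with a mean of 2.89, and the lowest one above it was Srsf4, with 14.3. In bovine the lowest were SRSF12 with 12.9 and PRPF19 with 18.4. The tested mouse members were 11 core snRNP proteins, 10 SR proteins, 20 hnRNPs, 9 SF3 proteins, 3 U2AF proteins and 13 PRPF proteins. The bovine set had the same make-up with 12 core snRNP proteins, SNRPN being the additional one, and 11 SR proteins.

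Introns are removed by the spliceosome, which is assembled on each pre-mRNA from small nuclear ribonucleoproteins (snRNPs) that each hold a small nuclear RNA in a ring of Sm proteins. U1 snRNP reads the 5′ splice site, U2AF reads the 3′ splice site, and U2 snRNP with its SF3A and SF3B complexes then binds the branch point, while PRPF proteins belong largely to the tri-snRNP and to the machinery that activates it. SR proteins bind exonic enhancers and mostly favour exon inclusion, and hnRNPs coat nascent RNA and often oppose it. Mammalian embryos start their own transcription during early cleavage, and every new intron-bearing transcript depends on this machinery.

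The edited embryos had been injected as zygotes with guide RNAs and mRNA for BE3, a base editor in which a deaminase fused to a Cas9 nickase converts cytosines without cutting both strands. The guides were directed against Tead4 (mouse) or TEAD4 (cattle), and the control embryos received the BE3 mRNA alone. TEAD4 is a DNA-binding factor of the Hippo pathway that is required in mouse for the trophectoderm, the outer layer of the blastocyst. Mouse embryos were morulae of day 3.25, with 2 edited and 2 control samples, and bovine embryos were blastocysts of day 7.0, with 6 edited and 6 control samples. All embryos of both groups received BE3 mRNA, and the controls had no guide RNA, so an effect of the guide RNAs and the loss of TEAD4 cannot be told apart. The sources used here do not give the number of embryos per sample or say whether samples came from separate injections. The p-values therefore describe variation among these libraries alone, and that variation may be technical.

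Tead4 stood at 57.2 and 76.5 normalized reads in edited morulae, against 458 and 519 in control morulae. In bovine blastocysts TEAD4 averaged 41.2 ± 15.6 in edited and 96.7 ± 23.4 in control samples (SD, n = 6 each), with ranges of 22.6 to 65.6 and 61.2 to 125 that overlap slightly, and it missed the threshold (limma adjusted p = 0.235), while it passed in DESeq2. Libraries held 4386305 and 6109425 assigned reads in edited and 4187826 and 3642907 in control morulae, and 817329 to 2259064 in edited and 934078 to 2501592 in control blastocysts. One bovine control library, control 6, had 36.6% of its reads in the ribosomal RNA gene RN18S1, against 9.27% to 25.2% in the other 11, and lay farthest from the rest on the first principal component. The most abundant mouse feature, LOC101056014, held 7.20% and 4.73% of assigned reads in edited and 2.42% and 3.30% in control morulae. All 8 embryo lineage markers had a row in both tables, and 1 of them, CDX2, was under the limit of 10 in bovine. Trophectoderm markers were lower in edited morulae, with means of 164 in edited and 2079 in control for Krt18, 857 and 2835 for Krt8, 222 and 1013 for Gata3 and 12.8 and 56.5 for Cdx2, all of which passed, while the pluripotency gene Pou5f1 was higher (1031 and 390.3, limma adjusted p = 1.86e-05). The pluripotency genes Sox2 (43.4 and 20.7) and Nanog (1311 and 1768) went in opposite directions and did not pass, nor did Gata6 (1244 and 1566). In bovine blastocysts KRT18, KRT8 and GATA3 did not pass, with log2 fold changes of 0.05, 0.14 and -0.02. The sum of all 8 was 4389 and 5383 normalized reads in edited and 9003 and 10454 in control morulae, and 9106 to 21967 in edited and 11649 to 21687 in control blastocysts. Of 10 cumulus and granulosa cell markers 1 had a row in mouse, with a sum of 4.25 and 5.72 in edited and 0 to 3.35 in control samples, and 5 had one in bovine, with sums of 11.1 to 24.1 and 6.28 to 25.4. Of 6 blood cell markers 2 had a row in mouse, summing to 9.92 and 39.1 in edited and 1.26 and 14.5 in control samples, and 3 had one in bovine, with sums of 4.24 to 20.7 and 6.85 to 25.4. No sperm marker of 4 had a row in mouse, and 1 had one in bovine, at 0 to 6.02 in edited and 0 to 7.29 in control samples. The part of the top features, of lineage and of other cells in the results was not tested.

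In mouse morulae 18 of the 66 members passed the test (limma on log2(value + 1), Benjamini-Hochberg adjusted p under 0.05 over all genes), against 15.3% of all tested genes. Of these, 11 were lower and 7 higher in edited morulae, against 8.38% and 6.92% of all genes. Core snRNP proteins made up 6 of the 11 that fell, and subunits of SF3A and SF3B made up 5 of the 7 that rose. No SR protein and no PRPF protein passed. An unadjusted p under 0.05 was reached by 30 members (45.5%, against 28.6% of all genes). Members were more abundant than tested genes in general, with a median of 669 against 93.9 normalized reads. Their standard errors were smaller, with a median of 0.19 against 0.31. Among genes with a mean of at least 50, 20 of 63 members passed, against 20.8% of all genes. The part of abundance in these counts was not tested. The samples of the 2 groups did not overlap in 47 members, against 57.8% of all genes. Of these, 23 were higher (28.6% of all genes) and 24 lower (29.2% of all genes) in edited morulae. The log2 fold change was above 0 in 32 of the 66, against 49.7% of all genes. Relative to all tested genes, whose median log2 fold change was -0.0049, the core snRNP proteins had a median of -0.57 and the SF3 proteins one of 0.55, while the PRPF proteins (0.16), hnRNPs (-0.02) and SR proteins (-0.20) lay between them. With every sample scaled to the same total, which moved the median of all genes to 0.12, 9 members were higher and 7 lower, and with the most abundant feature left out of that total (median 0.16) 12 were higher and 6 lower. Over all genes, 45.2% of the calls were higher with the deposited scaling, 62.0% with equal totals and 67.6% without that feature.

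**Figure D1:**
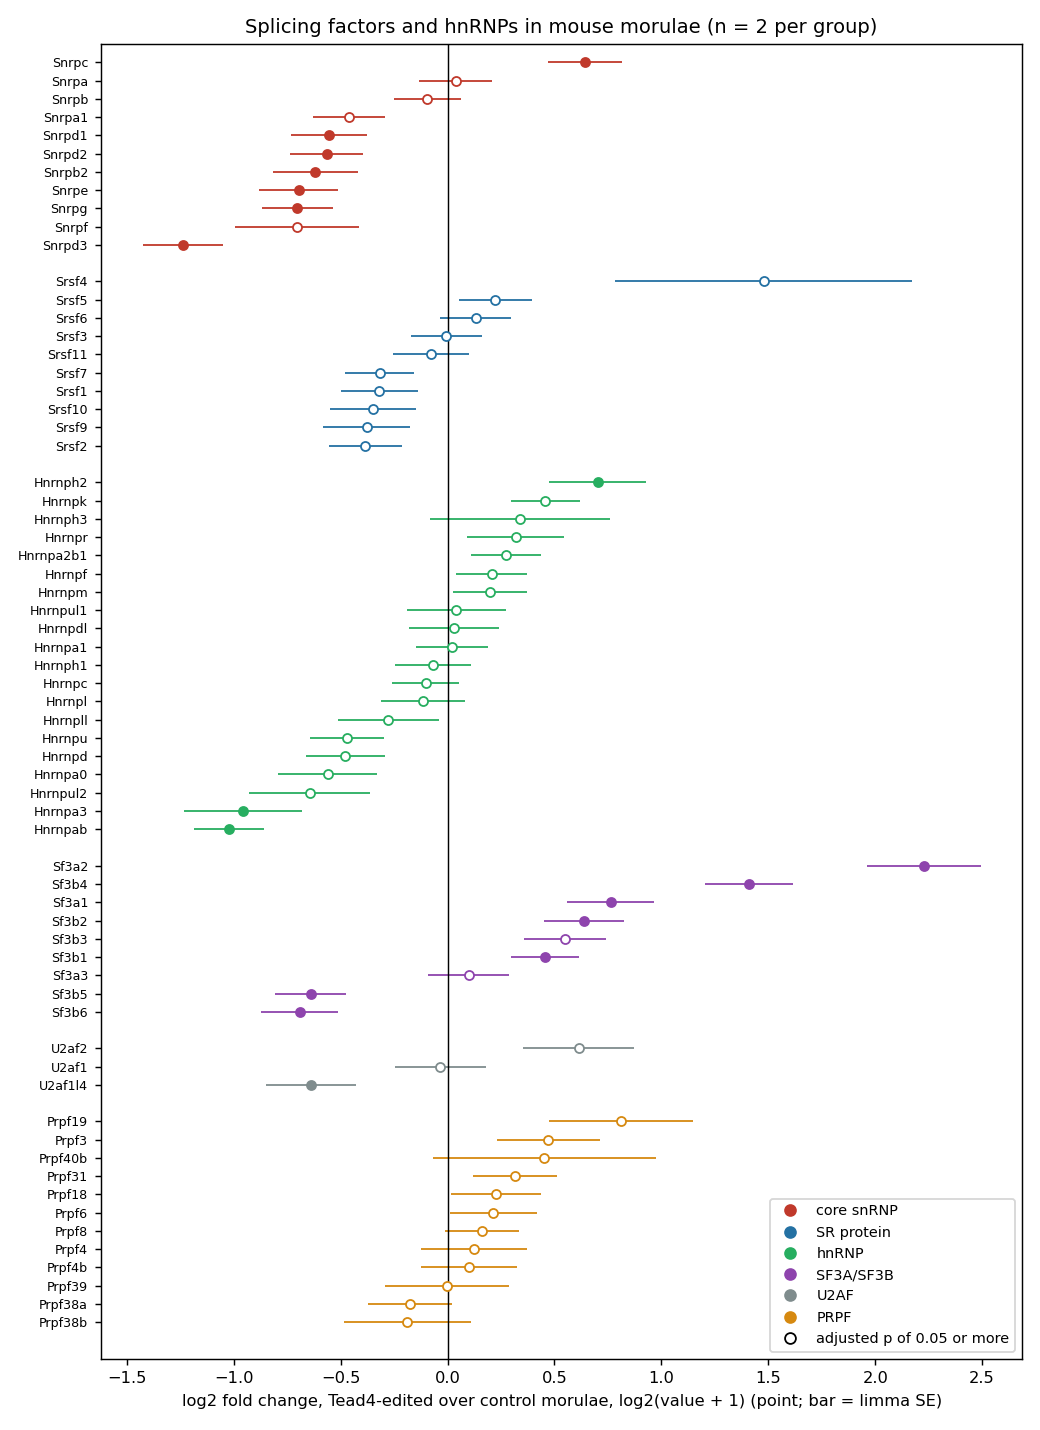
Log2 fold change of 65 of the 66 tested members in Tead4-edited over control morulae (horizontal axis; point with limma standard error, n = 2 per group), grouped by class and ordered by value. Filled points passed at an adjusted p under 0.05, which holds for 7 of 11 core snRNP proteins, 7 of 9 SF3 proteins, 3 of 20 hnRNPs, 1 of 3 U2AF proteins and no SR or PRPF protein.

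These calls rested on 4 libraries. In the fits that left out 1 library each, 4 members passed without control 1, 4 without control 2, 13 without edited 1 and 24 without edited 2. The share of all tested genes that passed moved the same way, at 5.09%, 5.26%, 12.2% and 22.7% in these fits. The members that passed in all 4 of these fits were Sf3a2 and Sf3b4, which rose, and Snrpd3 and Hnrnpab, which fell. The authors' deposited table listed 16 of the 66 members under an adjusted p of 0.05, 6 higher and 10 lower. Of the 11386 tested genes it listed 1319, 564 higher and 755 lower. Each library held RNA of whole embryos, so fewer cells of a type and less RNA per cell cannot be told apart.

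Of the 11 core snRNP proteins, 6 fell and 1 rose in edited morulae. The 7 proteins of the Sm ring had a median log2 fold change of -0.70, with values below 0 for all 7 and 5 that passed. Snrpd3 (chromosome 10, 75517551 to 75537381, plus strand, GRCm38), which encodes the Sm protein D3, stood at 445 and 575 normalized reads in edited morulae, against 1286 and 1111 in control morulae. Both edited samples were far below both controls. Snrpd3 was at 42.6% of the control mean. Its log2 fold change was -1.24 ± 0.19 (standard error) with a limma adjusted p of 5.86e-05, and at -1.05 to -1.42 in the fits without 1 library. It shares 6.74% of its exon bases with Gucd1 on the opposite strand, a gene with 53.4 and 77.3 normalized reads in edited and 121 and 73.4 in control morulae.

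Snrpg (chromosome 6, 86371304 to 86379328, plus strand), the Sm protein G, had 1342 and 1636 normalized reads in edited morulae, against 2499 and 2326 in control morulae. The groups were clearly apart, with a log2 fold change of -0.70 ± 0.17 and a limma adjusted p of 0.00493. Snrpe (chromosome 1, 133603871 to 133610291, minus strand), the Sm protein E, had 774 and 1125 in edited against 1532 and 1491 in control morulae. Its edited samples differed from each other more than its controls did, and the log2 fold change was -0.70 ± 0.18 (limma adjusted p = 0.0107). Snrpd2 (-0.57), Snrpd1 (-0.56) and Snrpb2 (-0.62), which encode the Sm proteins D2 and D1 and the U2 snRNP protein B″, fell as well. Snrpf (-0.70), Snrpa1 (-0.46) and Snrpb (-0.09), which encode Sm F, the U2 protein A′ and Sm B, did not pass. Snrpb was the most abundant member of the class, at 2834 and 2769 normalized reads in edited and 3111 and 2876 in control morulae. Per kilobase of annotated transcript its mean of 2496 was above that of Snrpg (1849), and the class median of 1385 reads per kilobase was the highest of the 6 classes.

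The U1 snRNP protein C went the other way. Snrpc (chromosome 17, 27838150 to 27851968, plus strand), which helps U1 to hold the 5′ splice site, had 1799 and 2417 normalized reads in edited morulae, against 1378 and 1294 in control morulae. Both edited values were above both controls, with a log2 fold change of 0.64 ± 0.17 (limma adjusted p = 0.0119). Sequence at least 95% identical over 300 bases or more is annotated in 3 other genes, none of which has a row in the table, so some of its reads could belong to them. Such copies are also annotated for Snrpd2 and Snrpa (2 genes each) and for Snrpg (1 gene). The other U1 protein in the set, Snrpa, was at 1152 and 1118 in edited and 1142 and 1068 in control morulae and did not pass. Apart from Snrpd3, each core snRNP call depended on the libraries used. Snrpd3 was the 1 member of the class that passed without control 1 and without control 2, while 3 passed as lower without edited 1 and 8 without edited 2. With equal totals 3 passed as lower.

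**Figure D2:**
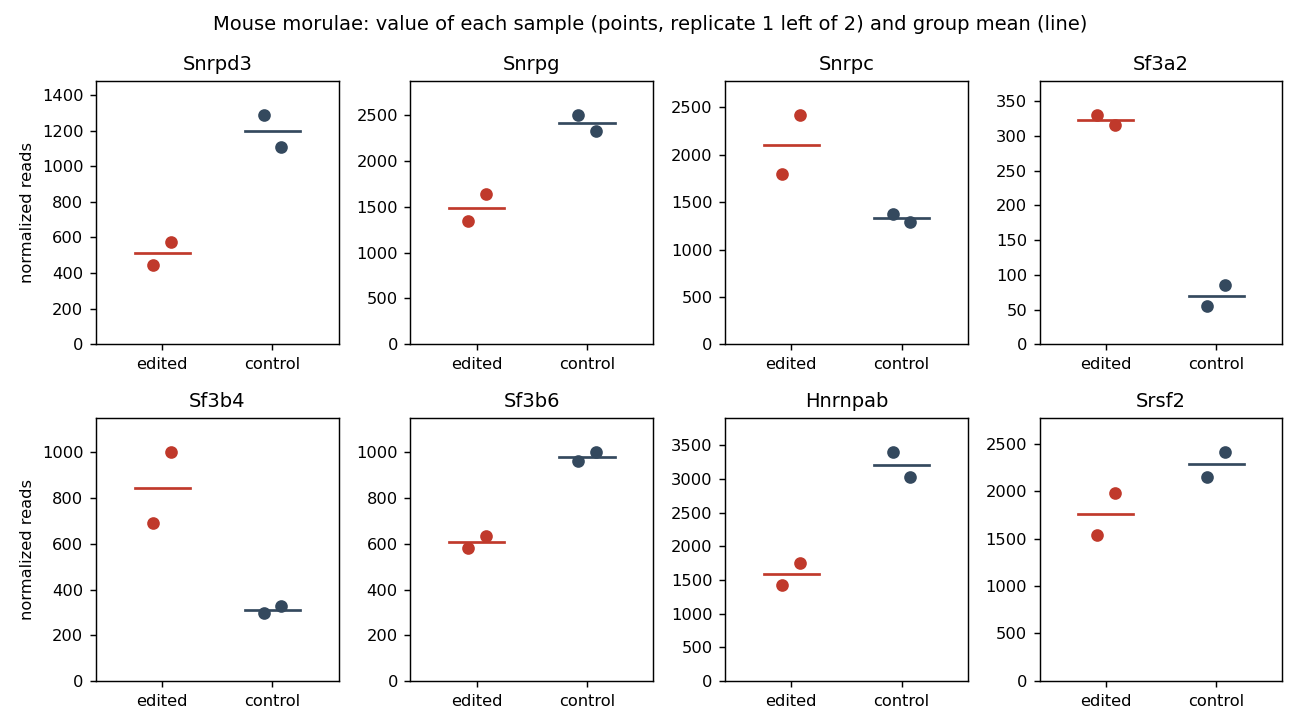
Normalized reads (vertical axes, from 0) of 8 members in each mouse library, Tead4-edited left and control right, with replicate 1 left of replicate 2 and a line at the group mean. Snrpd3, Snrpg, Sf3b6 and Hnrnpab are lower in both edited samples than in both controls, Sf3a2, Sf3b4 and Snrpc are higher, and Srsf2, which did not pass, has 1541 and 1975 against 2152 and 2412.

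SF3A and SF3B, the 2 complexes with which U2 snRNP grips the branch point, held 5 members that rose and 2 that fell among 9. Sf3a2 (chromosome 10, 80798198 to 80804924, plus strand), a subunit of SF3A, had the highest fold change of all members. It had 329.9 and 315 normalized reads in edited morulae, against 54.8 and 84.7 in control morulae. The edited samples differed little from each other and lay far above both controls, at 4.63 times the control mean, with a log2 fold change of 2.23 ± 0.27 (limma adjusted p = 2.33e-06) and 1.92 to 2.54 in the fits without 1 library. Its exons share 16.1% of their bases with Plekhj1 on the opposite strand, which had 163 and 231 normalized reads in edited and 212 and 192 in control morulae.

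Sf3b4 (chromosome 3, 96172332 to 96177564, plus strand), an RNA-binding subunit of SF3B, had 690.3 and 1001 normalized reads in edited morulae, against 297 and 328 in control morulae. Both edited values were more than 2 times either control, although they differed from each other by more than the controls did. Its log2 fold change was 1.41 ± 0.20 (limma adjusted p = 3.67e-05), and 1.14 to 1.68 in the fits without 1 library. A near-identical copy, by the limits given for Snrpc, is annotated in 1 other gene, so some of the Sf3b4 reads could belong to it. Sf3a1, the SF3A subunit with ubiquitin-like and SURP domains, had 474 and 499.7 in edited against 279 and 293 in control morulae, a log2 fold change of 0.76 ± 0.20 (limma adjusted p = 0.0107). Sf3b2 (0.64) and Sf3b1 (0.46, limma adjusted p = 0.0488), the large subunit that clasps the branch point adenosine, rose too. The Sf3b1 call was lost with a block for replicate number, with no filter on low values and with the length trend removed. Sf3b3 (0.55, limma adjusted p = 0.0503) and Sf3a3 (0.10) did not pass. Sf3b3 did pass in edgeR, with equal totals and without edited 2.

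A pair of small SF3B proteins fell. Sf3b6, which contacts the branch point adenosine, had 583 and 632 normalized reads in edited morulae, against 961 and 1002 in control morulae, a log2 fold change of -0.69 ± 0.18 (limma adjusted p = 0.00906). Sf3b5 had 1205 and 1234 in edited against 1978 and 1828 in control morulae, a log2 fold change of -0.64 ± 0.17 (limma adjusted p = 0.00894). Within each of these genes the groups were apart by more than the spread inside either group. Within SF3B, then, Sf3b4, Sf3b2 and Sf3b1 were higher and Sf3b5 and Sf3b6 lower, as was Phf5a, a further small SF3B subunit outside the symbol rule, at 1088 and 1257 in edited against 1801 and 1689 in control morulae (-0.58 ± 0.17, limma adjusted p = 0.0198). Outside Sf3a2 and Sf3b4 the SF3 calls were lost without control 1 and without control 2. Without edited 1, 3 rose and 2 fell.

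Of the 3 U2AF genes, U2af1l4, a paralogue of the small U2AF subunit, fell. It had 243 and 259 normalized reads in edited against 381 and 401 in control morulae, a log2 fold change of -0.64 ± 0.21 (limma adjusted p = 0.0387), a call that was lost with DESeq2, with equal totals, with the length trend removed, and without control 1, control 2 or edited 1. Its exons share 65.6% of their bases with another annotated gene on the same strand and 7.19% with Psenen on the opposite strand, so its reads are uncertain. Psenen itself fell, at 113 and 128 in edited against 193 and 219 in control morulae. U2af2, the large subunit that binds the polypyrimidine tract, had 199 and 159 in edited against 107 and 125 in control morulae and did not pass (0.61 ± 0.26, limma adjusted p = 0.113). U2af1, the small subunit that reads the AG at the 3′ splice site, had 502 and 332 in edited against 412 and 422 in control morulae, with the edited samples on either side of the controls. Its log2 fold change of -0.03 turned to 0.093 with equal totals.

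None of the 10 SR proteins passed in limma, edgeR or DESeq2, and 2 of them had an unadjusted p under 0.05 in limma. Without edited 2, Srsf2 (limma adjusted p = 0.00975) and Srsf10 (0.0118) passed as lower. Srsf2 (SC35), an SR protein of nuclear speckles, had 1541 and 1975 normalized reads in edited against 2152 and 2412 in control morulae, a log2 fold change of -0.38 ± 0.17 (limma adjusted p = 0.13, 95% interval -0.73 to -0.04). Srsf4 had 19.1 and 22.0 in edited against 3.35 and 12.6 in control morulae, close to the limit for testing, and its fold change of 1.48 ± 0.69 was correspondingly uncertain (limma adjusted p = 0.157). Without Srsf4 the SR proteins lay between -0.38 and 0.22 on the log2 scale, with 95% intervals that together spanned -0.80 to 0.57. The most abundant were Srsf7, at 1933 and 1806 in edited and 2380.2 and 2274 in control morulae, and Srsf2, with 1261 and 1253 reads per kilobase. A difference of the size seen for Snrpd3 was outside this span, while the median of the core snRNP proteins (-0.57) was inside it.

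Among the 20 hnRNPs 1 rose (5%, against 6.92% of all genes) and 2 fell (10%, against 8.38%), shares close to those of all genes. Hnrnpab (chromosome 11, 51600100 to 51606847, minus strand), an A/B-type hnRNP, had 1429 and 1745 normalized reads in edited morulae, against 3398 and 3028 in control morulae. Each edited sample was far below each control, at 49.4% of the control mean, with a log2 fold change of -1.02 ± 0.17 (limma adjusted p = 0.000127) and -0.88 to -1.17 in the fits without 1 library. It shares 29.1% of its exon bases with Phykpl on the opposite strand, which had 25.7 and 21.3 in edited and 23.5 and 21.5 in control morulae. Hnrnpa3, another A/B-type member, had 74.4 and 96.4 in edited against 151 and 181 in control morulae, a log2 fold change of -0.96 ± 0.28 (limma adjusted p = 0.0185). Without control 1, control 2 or edited 1 it no longer passed, and 26 other annotated genes hold a near-identical stretch of it, so its level is uncertain.

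Hnrnph2, an F/H-type hnRNP that binds G-rich RNA, had 291.8 and 391.9 normalized reads in edited against 191 and 225 in control morulae, a log2 fold change of 0.70 ± 0.23 (limma adjusted p = 0.0356). It passed without edited 1 and in none of the other 3 fits that left out 1 library. The most abundant hnRNPs were Hnrnpc, at 3270.3 and 3785 in edited and 3876 and 3683 in control morulae, and Hnrnpa1, at 2694 and 3635 in edited and 2951 and 3216 in control morulae. Their groups overlapped, and their log2 fold changes of -0.10 (95% interval -0.43 to 0.22) and 0.02 (-0.32 to 0.37) were well short of that of Hnrnpab. Near-identical copies are annotated in 9 other genes for Hnrnpa1, of which 2 have values of their own. For Hnrnpc and for Hnrnph2 a copy is annotated in 1 other gene each. The SR proteins and hnRNPs together had a median log2 fold change of -0.07 with the deposited scaling. It was -0.18 without edited 2 and turned to 0.05 with equal totals.

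None of the 13 PRPF proteins passed in limma, edgeR or DESeq2, and 1 had an unadjusted p under 0.05 in limma. That was Prpf19, the ubiquitin ligase of the complex that activates the spliceosome, with 91.5 and 77.3 normalized reads in edited against 42.5 and 53.1 in control morulae, a log2 fold change of 0.81 ± 0.34 (limma adjusted p = 0.103). It passed with equal totals once the most abundant feature was left out. Prpf3, a U4/U6 protein, had 206 and 208 in edited against 144 and 154 in control morulae (0.47 ± 0.24, limma adjusted p = 0.199). Prpf8, the scaffold of the catalytic core and the most abundant of this class, had 1112 and 1018 in edited against 977 and 926 in control morulae, a log2 fold change of 0.16 with a 95% interval of -0.19 to 0.52. Per kilobase of transcript its mean level was 137 reads.

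The core snRNP proteins were then set against SR proteins and hnRNPs within each library. The mean log2(value + 1) of the core snRNP proteins minus that of the SR proteins and hnRNPs was 0.42 and 0.54 in edited morulae, against 0.98 and 0.74 in control morulae. Both edited samples were below both controls. Over genes, the median log2 fold change was -0.57 for the core snRNP proteins and -0.07 for the SR proteins and hnRNPs, a difference of -0.49. This difference was -0.41 without control 1, -0.61 without control 2, -0.41 without edited 1 and -0.54 without edited 2, and equal totals left it at -0.49. It is a description of these libraries and was given no test, since the classes were chosen with results of these data known.

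**Figure D3:**
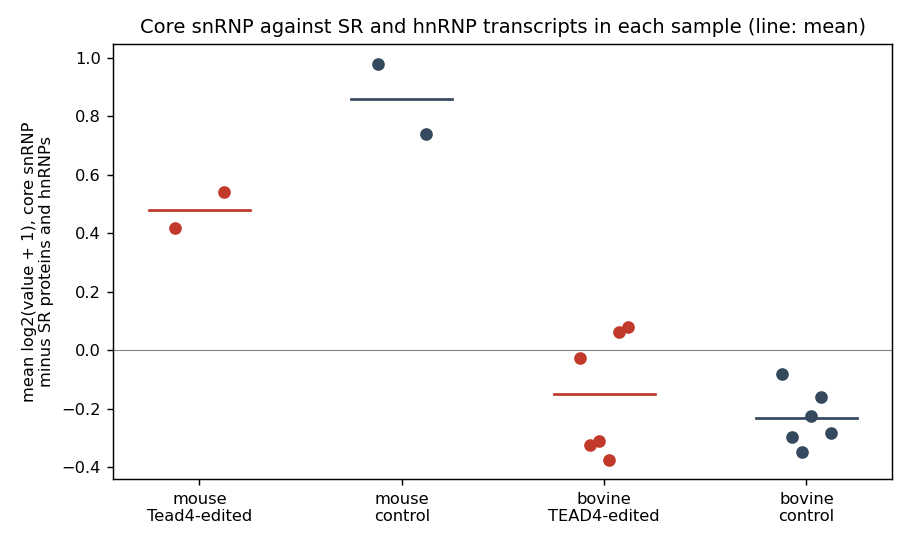
Mean log2(value + 1) of core snRNP proteins minus that of SR proteins and hnRNPs (vertical axis) in each library of the 4 groups, with a line at the group mean. The edited morulae (0.42 and 0.54) lie below the control morulae (0.98 and 0.74), and the edited blastocysts (-0.37 to 0.08) overlap the control blastocysts (-0.35 to -0.08). The tables were normalized separately, so values are compared within a species.

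Transcript length moved with this difference. The core snRNP transcripts had a median annotated length of 1161 nucleotides, against 2317.5 for SR proteins and hnRNPs. Among all tested mouse genes with a length, placed in 10 groups of about equal size, the shortest group (up to 977.5 nucleotides) had a median log2 fold change of -0.50 and the next (up to 1418) one of -0.23, while the 7 groups of the longest genes had medians of 0.04 to 0.13. Ribosomal protein genes, with a median length of 772.5 nucleotides, had a median of -0.60, and 63 of 80 fell and 0 rose (limma; 73 had an unadjusted p under 0.05, all of them lower). With the length trend of each library removed, the difference between the classes was -0.12, and 10 members passed, 4 higher and 6 lower. Over all genes with a length 10.7% passed in that fit, split evenly between higher and lower.

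The members differed in how far they departed from genes of their own length. Relative to the median of its length group, Snrpd3 was at -1.18, Hnrnpab at -1.06 and Sf3b5 at -0.76 on the log2 scale, while Snrpe was at -0.20 and Snrpd1 at -0.06. On the side of the members that rose, Sf3a2 was at 2.28, Sf3b4 at 1.37, Snrpc at 1.14 and Sf3a1 at 0.67. With the length trend removed, Sf3a1, Sf3a2, Sf3b4 and Snrpc passed as higher and Hnrnpa3, Hnrnpab, Sf3b5, Snrpb2 and Snrpd3 as lower, joined by Hnrnpu, the matrix-binding hnRNP U. Hnrnph2 (0.61 there, 0.70 before), Sf3b2 (0.52 and 0.64), Sf3b1 (0.38 and 0.46), Snrpd2 (-0.45 and -0.57), Sf3b6 (-0.47 and -0.69) and Snrpg (-0.42 and -0.70) no longer passed, with adjusted p of 0.0608 to 0.0760 in limma. Snrpe (-0.18 and -0.70), U2af1l4 (-0.21 and -0.64) and Snrpd1 (-0.094 and -0.56) did not pass either, and their values moved closer to 0. What length stands for in these libraries was not tested.

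**Figure D4:**
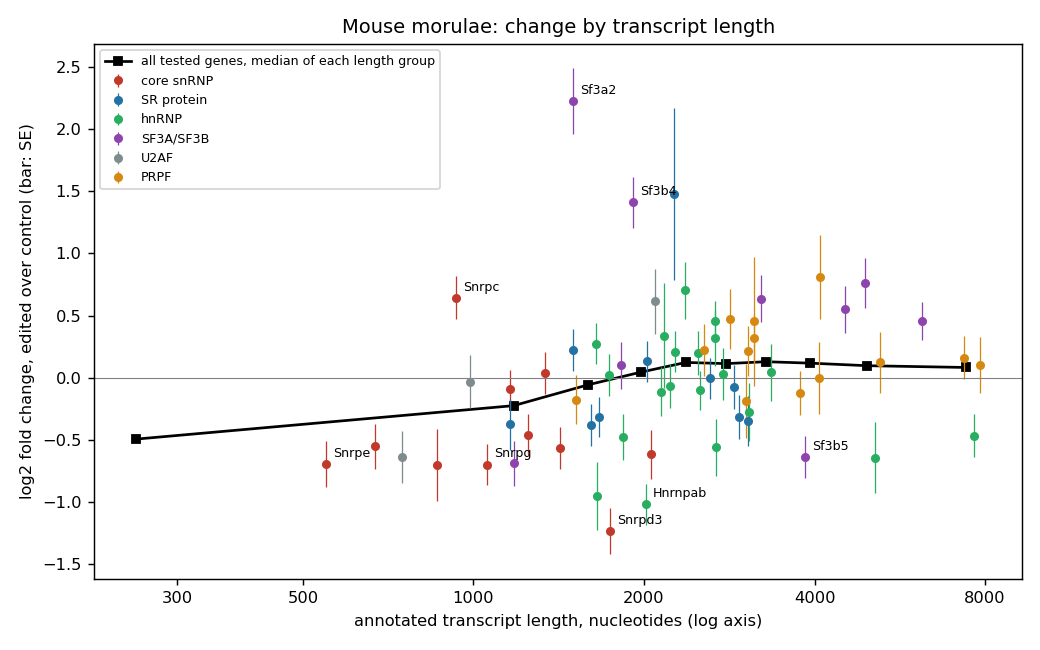
Log2 fold change of each mouse member in Tead4-edited over control morulae (vertical axis, bar: limma standard error) against its annotated transcript length in nucleotides (log axis), coloured by class. Black squares are the medians of all tested genes in 10 groups of length, from -0.50 in the shortest group to 0.08 in the longest, and Sf3a2, Sf3b4, Snrpc, Snrpd3 and Hnrnpab stand well away from that line.

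Other parts of the splicing machinery, listed for comparison, were called about as often as genes in general in edited morulae. Of 137 such genes 10 rose (7.30%, against 6.92% of all genes) and 14 fell (10.2%, against 8.38%), with a median log2 fold change of -0.02. Among U snRNP proteins outside the symbol rule and factors that act with U snRNPs, 2 of 24 rose and 2 fell (8.33% each). Sf1, which marks the branch point before U2 snRNP arrives, had 690.3 and 559 normalized reads in edited against 219 and 225 in control morulae, a log2 fold change of 1.48 ± 0.21 (limma adjusted p = 2.08e-05). Snrnp35 of the minor U11 snRNP rose (1.24) and Snrnp27 of the tri-snRNP fell (-0.62). Of 13 LSM proteins, relatives of the Sm proteins, 3 fell (Lsm7, Lsm3 and Lsm8, 23.1%) and 0 rose in limma, with a median of -0.39. Their median length was 875.5 nucleotides, and 4 had an unadjusted p under 0.05 in limma. In the machinery that loads Sm rings onto snRNA, 2 of 13 fell (15.4%), Gemin7 (-0.74) and Strap (-0.54).

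In the Prp19 complex and among step factors, 2 of 23 rose (8.70%, against 6.92% of all genes) and 3 fell (13.0%, against 8.38%). Among them were Bud31 (-0.84), Rbm22 (0.83) and Bcas2 (-0.79). Of 10 exon junction complex genes 1 rose (10%) and 3 fell (30%). Magohb, a core subunit of that complex, had 41.0 and 63.8 normalized reads in edited against 133 and 125 in control morulae, a log2 fold change of -1.32 ± 0.32 (limma adjusted p = 0.00524). Its partner Rbm8a fell (-0.71), and Rnps1, a peripheral factor, rose (0.57). Of 18 SR kinases and SR-related genes 1 rose (5.56%), Scaf1, with 99.2 and 98.5 in edited against 27.9 and 41.7 in control morulae. Of 36 other regulators 4 rose (11.1%) and 1 fell (2.78%). The polypyrimidine tract-binding genes moved apart, with Ptbp3 at 137 and 199 in edited against 369 and 496 in control morulae (-1.37 ± 0.24) and Ptbp1 at 969.7 and 1095 against 537 and 717 (0.73 ± 0.19).

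In bovine blastocysts 0 of the 68 members passed in limma, in edgeR and in DESeq2, against 0.0113% of all tested genes in limma. An unadjusted p under 0.05 was reached by 5 members in limma (7.35%, against 5.88% of all tested genes), by 3 in edgeR and by 5 in DESeq2. No member had groups that did not overlap, against 0.248% of all genes. The members' median log2 fold change was 0.06, against 0.01 for all genes, and 40 of the 68 were above 0, against 51.5% of all genes. The authors' deposited table also listed 0 of the 68 members, against 3 of the 8884 tested genes. The median standard error of a member was 0.19, as in mouse, so the larger number of samples came with no smaller error. Over all tested bovine genes the median standard error was 0.25.

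The 5 members with an unadjusted p under 0.05 came from 5 classes. SRSF7, an SR protein that also links splicing to mRNA export, stood at 535 to 737 normalized reads in edited blastocysts (median 615), against 291 to 545 in control blastocysts (median 426). All 6 edited samples were above the control median, although the groups overlapped, and the log2 fold change was 0.56 ± 0.17 (limma adjusted p = 0.792). PRPF3 ranged from 74.1 to 172 in edited (median 108) and from 56.4 to 93.0 in control blastocysts (median 78.9), a log2 fold change of 0.60 ± 0.22. SNRPA1, the U2 protein A′, ranged from 176 to 296 in edited (median 237) and from 140.0 to 207 in control blastocysts (median 174), a log2 fold change of 0.45 ± 0.17. In PRPF3 5 of 6 and in SNRPA1 6 of 6 edited samples exceeded the control median.

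SF3B4 ranged from 157 to 285 in edited (median 209.7) and from 102 to 237 in control blastocysts (median 155), a log2 fold change of 0.44 ± 0.20. HNRNPA3 ranged from 226 to 428 in edited (median 330.1) and from 359 to 534 in control blastocysts (median 401), a log2 fold change of -0.39 ± 0.18. The ranges overlapped in both genes, with 6 of 6 edited samples above the control median for SF3B4 and 1 of 6 for HNRNPA3. The limma adjusted p of PRPF3, SNRPA1, SF3B4 and HNRNPA3 was 0.792, as for SRSF7. Without control 6, the library with the large ribosomal share, these 5 values were 0.45 for SRSF7, 0.53 for PRPF3, 0.46 for SNRPA1, 0.42 for SF3B4 and -0.37 for HNRNPA3, and 0 members passed.

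No other bovine member reached an unadjusted p under 0.05 in limma. The low-abundance PRPF31 was at -0.59 ± 0.46 and SRSF12 at -0.46 ± 0.36 on the log2 scale. SNRPN, a relative of Sm B encoded at an imprinted locus, ranged from 53.7 to 113 in edited (median 75.9) and from 35.4 to 75.9 in control blastocysts (median 63.9). SRSF11 (-0.34), HNRNPL (-0.33), SF3A3 (0.36), U2AF2 (-0.37), U2AF1 (0.14) and PRPF4 (0.35) were the remaining members with the smallest p of their classes. The abundant HNRNPA1 had 1359 to 2104 normalized reads in edited (median 1834) and 995 to 1958 in control blastocysts (median 1520), and HNRNPA2B1 had 790 to 1381 (median 976) and 902 to 1296 (median 1033). The core snRNP proteins had a median log2 fold change of 0.08 and the SR proteins and hnRNPs one of 0.03, a difference of 0.05, and of 0.11 without control 6. Per library the difference between the classes ranged from -0.37 to 0.08 in edited and from -0.35 to -0.08 in control blastocysts.

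Short bovine transcripts did not have the lower values. With each bovine gene given the transcript length of the mouse gene of the same symbol, an alternative chosen after seeing the data, the shortest of 10 groups had a median log2 fold change of 0.05 and the longest one of -0.18. Removing this trend left 0 members past the threshold (limma) and 5 with an unadjusted p under 0.05.

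Of the 66 members tested in both species, 6 had a log2 fold change that differed between bovine blastocysts and mouse morulae (adjusted p under 0.05 over 7073 shared symbols, from both limma fits with Satterthwaite degrees of freedom), which is 9.09%, against 6.07% of all shared symbols. The bovine value was above the mouse value in 4 (3.69% of all shared symbols) and below it in 2 (2.38%). SNRPD3 had the difference with the smallest p. It ranged from 431 to 827 normalized reads in edited (median 707) and from 489 to 751 in control blastocysts (median 626), a log2 fold change of 0.09 ± 0.17, against -1.24 ± 0.19 in morulae. Bovine minus mouse was 1.33 (adjusted p = 0.000675). SF3A2 ranged from 34.1 to 43.9 in edited (median 40.8) and from 15.6 to 63.1 in control blastocysts (median 32.3), and its log2 fold change of 0.33 ± 0.30 was 1.90 below that of morulae (bovine minus mouse -1.90, adjusted p = 0.00283).

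For SNRPA1 the value was 0.45 in bovine and -0.46 in mouse (bovine minus mouse 0.90, adjusted p = 0.0168). For SRSF7 it was 0.56 in bovine and -0.32 in mouse (0.87, adjusted p = 0.0207), and neither gene passed within a species. SF3B4 was at 0.44 in bovine and 1.41 in mouse (-0.97, adjusted p = 0.0351), the same direction with a smaller value in bovine. HNRNPAB ranged from 442 to 743 in edited (median 511) and from 371 to 862 in control blastocysts (median 632), a log2 fold change of -0.14 ± 0.21, which differed from -1.02 in mouse by 0.88 (adjusted p = 0.041). The count of 6 was 2 without mouse control 1, 3 without mouse control 2 and 6 without bovine control 6. Species, stage, depth and the number of samples differed together, so these cannot be told apart. The trend with transcript length differed as well, with a median of -0.50 in the shortest group of mouse genes and 0.05 in that of bovine genes. Its part in the species differences was not tested.

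**Figure D5:**
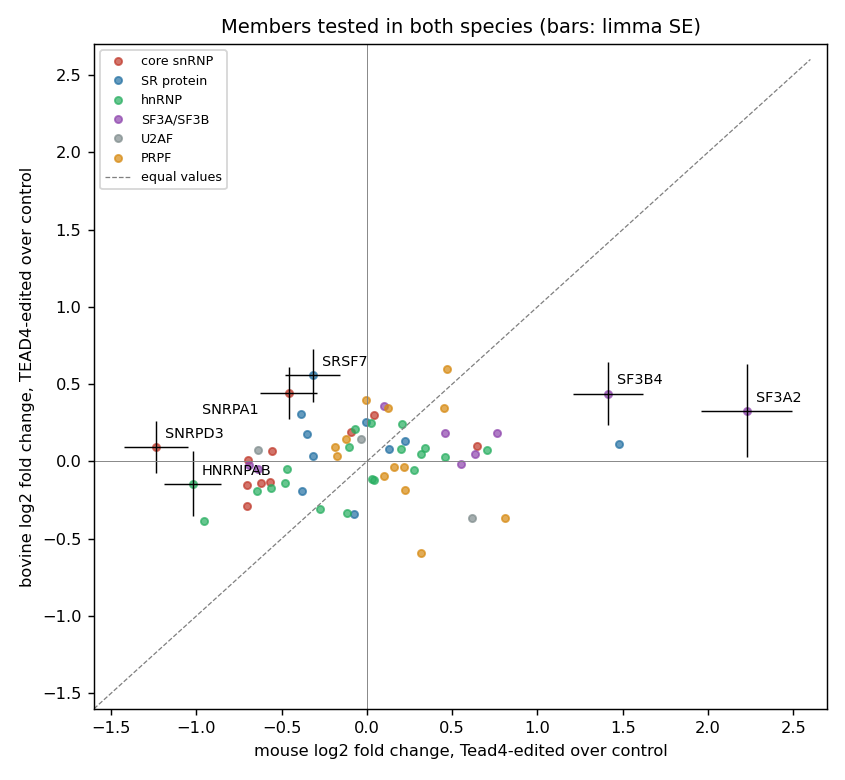
Log2 fold change, edited over control, of the 66 members tested in both species, with mouse morulae on the horizontal and bovine blastocysts on the vertical axis, coloured by class. Bars (limma standard error) and names mark the 6 members whose values differ between species, and the dashed line marks equal values. Mouse values span -1.24 to 2.23 and bovine values -0.59 to 0.60.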

How the data were processed

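Polyadenylated RNA of mouse and bovine embryos was sequenced with the Smart-seq2 method, according to the labels' protocols. Tools named in the submitters' processing notes are Trimmomatic, HISAT2, featureCounts and DESeq2, with the builds mm10 and ARS-UCD1.2. The sources used here give no versions, annotation or strand setting. The deposited signal values are read counts per gene divided by a size factor, 1 table per species, per the file headers. The authors' log2 fold changes and score (a test statistic) were not used, and their deposited p-values only for counts of calls. All values (100%, tolerance 0.05 reads) were whole multiples of 1 read, so whole reads were recovered, and 3 reads equal 1.71 to 5.56 normalized reads, a limit that covers counting error only.

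Groups came from sample titles. Genes with a mean of at least 10 were tested per table with limma 3.58.1 (R 4.3.3, trend, two-sided) on log2(value + 1), a scale that understates changes of low genes, with Benjamini-Hochberg adjustment over all genes. The species difference was tested as the difference of the 2 limma estimates. The test was checked on simulated data. Alternatives were edgeR 4.0.16 and DESeq2 1.42.0 on the recovered reads, other pseudocounts, filters and scalings, removal of a length trend, a replicate block and each library left out. Lengths are medians over coding transcripts of GENCODE M21 (GRCm38), which also gave coordinates, overlaps and copies (BLAST+ 2.17.0). Members and lists were chosen with earlier results of these data known. Named were, per class, up to 4 called members with the largest change, the 2 with the smallest p, the 2 most abundant, those that differed between species, and up to 3 called genes per other list. Further genes were chosen after their values were seen. One gene that this rule names is not reported here.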

Additional observations from a re-analysis of the deposited data

Results flagged for a closer look

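The log2 fold change differed between species, bovine minus mouse, for SNRPD3 (1.33), SF3A2 (-1.90), SNRPA1 (0.90), SRSF7 (0.87), SF3B4 (-0.97) and HNRNPAB (0.88), by the test of the difference given above. In edited blastocysts 1 library, edited 2 at 341 normalized reads of HNRNPL, lay far above the other 5, at 199.7 to 223. It was the only value so far out among 52 groups examined, although a library this far out is expected by chance in about 1 of 20 groups. Control blastocysts ranged from 202 to 457 for HNRNPL, so edited 2 lay inside the control range.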

How the results depend on the processing

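With the design used above, 18 mouse members passed. With the length trend removed 10 did (4 higher, 6 lower, 2 core snRNP proteins lower), and the difference between the classes was -0.12. With equal totals 7 were lower, 3 of them core snRNP proteins. Without the most abundant feature in the total 12 were higher and 6 lower, again with 3 core snRNP proteins. Leaving out 1 mouse library gave 4 to 24 called members, 2 to 7 higher, 2 to 17 lower and 1 to 8 lower core snRNP proteins, and 2 to 8 members that differed between species. Replicate numbers were not taken as pairs, because same-numbered samples correlated at 0.11 in mouse and at -0.19 to 0.34 in bovine. On the second principal component, however, mouse libraries split by replicate number. Control 1 and edited 1 lay at -21.95 and -21.85, and control 2 and edited 2 at 12.53 and 31.28. With the replicate block 17 mouse members (6 higher, 11 lower) and 0 bovine members passed (limma). No setting called a bovine member (unadjusted p under 0.05 in 3 to 8). Of 51 named-gene values under all settings, 919 kept sign and side of the threshold, 32 lost it, 6 gained it and 37 changed sign.

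Sign changes in mouse, on the log2 scale, were those of Hnrnpl (0.011 with equal totals, 0.058 without the top feature, -0.34 to 0.11 with a library left out), Srsf11 (0.047, 0.094, and -0.21 to 0.049) and U2af1 (0.093, 0.14, and -0.33 to 0.26, with 0.021 in edgeR, 0.010 in DESeq2 and 0.29 with length removed). With a library left out Prpf4 spanned -0.068 to 0.32 and Sf3a3 -0.043 to 0.24. In bovine SNRPE was at -0.017 without the top feature, -0.0023 in edgeR, -0.0067 in DESeq2, -0.067 with gene span and -0.0049 with mouse length removed, and -0.079 to 0.081 with a library left out. SF3B6 was at 0.098 with equal totals and -0.15 to 0.054 with a library left out, HNRNPH2 at -0.0043 with gene span removed and -0.069 to 0.18, U2AF1L4 at -0.11 to 0.27, and SNRPD3 at -0.0032 with mouse length removed. The causes were not tested. Depth limits low members most, such as bovine PRPF31, with 2.01 normalized reads in 1 library.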
